A study of Mus musculus with 12 samples.

Results

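The Hedgehog signalling genes of the adult mouse stomach were examined in Car9-/- mice, which lack carbonic anhydrase IX (CA IX), and in wild-type mice. The members were taken by name as 9 genes, Shh, Ihh, Ptch1, Smo, Gli1, Gli2, Gli3, Hhip and Sufu, and every array probe that the platform table assigns to 1 of these symbols was used. The table names 19406 genes in all, and the members had 19 of the 46643 probes on the array. Of these 19 probes, 14 were detected on at least 3 arrays, with a detection p under 0.01, and were tested, among 20751 tested probes in all.

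The tested mice were 6 Car9-/- mice, 3 males and 3 females of 10 to 12 months, and their controls were 6 wild-type mice, 3 males and 3 females of 8 to 12 months. The Car9-/- mice were C57BL/6 and carried a targeted disruption of Car9. The strain of the wild-type controls was not given separately. RNA from the body of the stomach of each mouse was hybridized to its own Illumina Mouse-6 array. Signals are given as log2 of the array signal after quantile normalization, and n is 6 mice per genotype unless another number is stated.

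Hedgehog ligands are secreted proteins that bind the receptor Ptch1 on nearby cells. Unbound Ptch1 keeps the membrane protein Smo silent; when a ligand is bound, Smo becomes active and the Gli transcription factors switch on target genes, among them Gli1, Ptch1 and Hhip themselves. In the adult stomach the ligands are made by the epithelium, Shh largely by the acid-secreting parietal cells and Ihh by the mucus-producing pit cells of the surface, and most of the responding cells lie in the mesenchyme beneath. Because whole tissue was measured, fewer cells of a type and less RNA per cell cannot be told apart.

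Car9 itself was lower in every Car9-/- mouse than in every wild-type mouse. Its brighter probe averaged 7.96 ± 0.15 in Car9-/- mice and 9.63 ± 0.13 in wild-type mice (SD, n = 6 each), a log2 fold change of -1.67 (SE 0.08, limma adjusted p = 3.83e-07). The other Car9 probe had a log2 fold change of -1.18 (SE 0.13, limma adjusted p = 9.7e-04). Both probes were still detected in all 12 stomachs, and it was not known whether they lie inside the disrupted part of the gene.

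Correlations between pairs of arrays over all probes on the array ranged from 0.960 to 0.993. Between 18467 and 20276 probes were detected per Car9-/- array, against 18141 to 19390 per wild-type array. The stomach was recognisable by its epithelium, since 6 of 6 pit cell, 6 of 7 parietal cell and 5 of 5 chief cell markers were detected on all 12 arrays. Other tissue was present unevenly. Each marker list was summarised per mouse as the average of its tested genes, with every gene first set to a mean of 0 over the 12 mice. The exocrine pancreas level was -1.58 to -0.69 in Car9-/- mice and -0.66 to 3.69 in wild-type mice, with wild-type mice 4 and 6 at 3.69 and 3.30 and the other wild-type mice at 0.16 or less, and 3 of 11 pancreas markers were lower in Car9-/- mice. The same wild-type mice had the highest adipocyte levels, with -1.16 to 0.05 in Car9-/- mice and -1.18 to 2.49 in wild-type mice. Forestomach (squamous) levels spread widely in both genotypes, -2.20 to 2.65 in Car9-/- mice and -2.51 to 2.86 in wild-type mice, and the basal keratin Krt5 was detected on 7 of the 12 arrays, although the specimens are described as stomach body.

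Among the Hedgehog genes, Shh was higher in Car9-/- mice, and no other gene passed the test. Of the 14 tested member probes, 1 was called higher (limma, adjusted p under 0.05) against 5.34% of all tested probes, and 0 were called lower against 5.25% of all tested probes. In either direction this was 1 of 14 probes, or 1 of 8 genes by their brightest tested probe, beside 10.6% of all tested probes. At an unadjusted p under 0.05, the count was 6 of 14 member probes and 5681 of 20751 tested probes. The median log2 fold change was -0.003 over the 14 member probes and -0.0007 over all tested probes. The share of members called is thus near the background of the arrays, and the genes are described one by one.

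**Figure D1:**
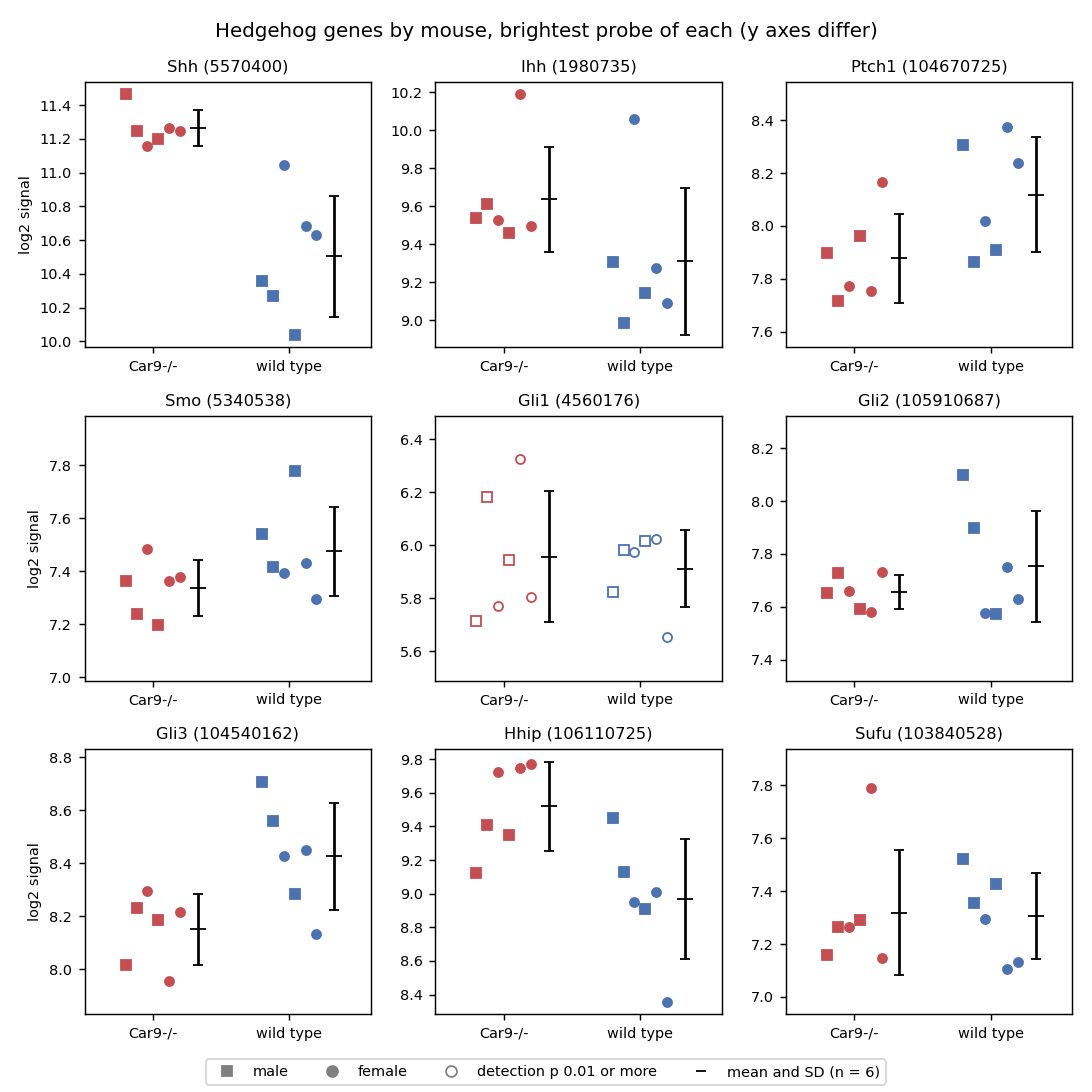
Log2 signal (y axis, a different range in each panel) of the brightest probe of each of the 9 Hedgehog genes in the 6 Car9-/- mice (left of each panel, red) and the 6 wild-type mice (right, blue), with the mean and SD beside the points; squares are males, circles females, and open symbols are signals with a detection p of 0.01 or more. The Shh points of the Car9-/- mice, 11.16 to 11.46, all lie above those of the wild-type mice, 10.04 to 11.05, and the genotypes overlap in each of the other panels.

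Shh, the ligand made largely by parietal cells, was the member with the clearest difference. Its brighter probe (5570400) had a lowest, median and highest signal of 11.16, 11.25 and 11.46 in Car9-/- mice, and of 10.04, 10.49 and 11.05 in wild-type mice. The genotypes did not overlap, as was so for 4.54% of all tested probes, and the spread was narrower in Car9-/- mice (SD 0.11) than in wild-type mice (SD 0.36). The highest wild-type signal, 11.05, came from the youngest mouse, an 8-month female. The mean was 11.26 in Car9-/- mice and 10.50 in wild-type mice, a log2 fold change of 0.76 (SE 0.14, 95% CI 0.45 to 1.06) or 1.69-fold (limma adjusted p = 0.0086). On the linear scale as deposited, the signals were 2501 to 3402 in Car9-/- mice and 822 to 2128 in wild-type mice.

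The other Shh probe (106370278), which targets the same transcript record, was much nearer to the detection limit and was detected in 6 Car9-/- and 4 wild-type mice. Its signals were 6.71, 6.83 and 6.97 (lowest, median, highest) in Car9-/- mice and 6.48, 6.68 and 6.82 in wild-type mice, with 4 of 6 Car9-/- mice higher than all 6 wild-type mice. A log2 fold change of 0.19 (SE 0.07) did not pass (limma adjusted p = 0.114). The Shh probes thus had the same sign, but only the brighter probe passed. Their r of 0.86 over 12 mice pools genotypes that did not overlap on the brighter probe. Within Car9-/- mice the order differed, since mouse 5 was above the median on the brighter probe (11.27) and lowest on the dimmer (6.71).

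Markers of the epithelial cell types that make the ligands are given beside Shh. Among pit cell markers, 4 of 6 had positive and 2 of 6 negative log2 fold changes, and 2 of 6 were higher in Car9-/- mice, the surface mucin Muc5ac (0.43, SE 0.10, limma adjusted p = 0.0193) and Muc1 (0.42, SE 0.08, limma adjusted p = 0.0107), and the pit cell level was -0.09 to 0.33 in Car9-/- mice and -0.38 to 0.10 in wild-type mice. Among parietal cell markers, all 7 had negative log2 fold changes and 1 of 7 passed, the potassium channel Kcnq1 (-0.46, SE 0.12, limma adjusted p = 0.0257), while the proton pump subunits Atp4a (-0.34, limma adjusted p = 0.140) and Atp4b (-0.03, limma adjusted p = 0.725) did not. The parietal cell level was -0.52 to 0.23 in Car9-/- mice and -0.12 to 0.39 in wild-type mice.

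The Shh difference kept its sign but did not pass with the parietal cell, pit cell or exocrine pancreas level as a covariate. It was 0.66 (SE 0.18, limma adjusted p = 0.140) with the parietal cell level, 0.53 (SE 0.14, limma adjusted p = 0.0741) with the pit cell level and 0.55 (SE 0.17, limma adjusted p = 0.172) with the exocrine pancreas level. With these covariates the calls among all tested probes fell from 2197 to 54 (parietal), 242 (pit) and 31 (pancreas), so the loss was not particular to Shh. The exocrine pancreas level was at most -0.69 in Car9-/- mice and at least -0.66 in wild-type mice, so it partly follows genotype. With it as a covariate the SE of Shh rose from 0.14 to 0.17. Whether pancreas content accounts for the Shh difference was not tested. The parietal and pit cell covariates were chosen after seeing the data. Without wild-type mice 4 and 6, which had the highest pancreas and adipocyte levels, Shh was higher by 0.68 (SE 0.14, limma adjusted p = 0.0305). Of the 11 pancreas markers, 3 did not overlap between genotypes and were lower in Car9-/- mice, the enzymes Prss1, Amy2a5 and Try4. The other 8 overlapped and did not pass (limma). A difference in Prss1, Amy2a5 and Try4 thus remains without wild-type mice 4 and 6. Whether it reflects pancreas tissue was not tested. With any 1 mouse left out the log2 fold change of Shh was 0.67 to 0.87.

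Ihh, the ligand of the surface pit cells, had a higher mean in Car9-/- mice that did not pass. The brighter probe (1980735) had a lowest, median and highest signal of 9.46, 9.53 and 10.19 in Car9-/- mice and of 8.99, 9.21 and 10.06 in wild-type mice. Each genotype had 5 mice close together and 1 female well above them, Car9-/- mouse 5 at 10.19 and the 8-month wild-type mouse 3 at 10.06. The log2 fold change was 0.33 (SE 0.18, 95% CI -0.06 to 0.71, limma adjusted p = 0.252). Without wild-type mouse 3 it was 0.48 and passed (limma adjusted p = 0.0297), and with sex and age as covariates it was 0.33 with an SE of 0.08 (limma adjusted p = 0.0304). Without Car9-/- mouse 5 it was 0.22 (limma adjusted p = 0.366), and after adjustment for the exocrine pancreas level it was 0.12 (limma adjusted p = 0.849). It was larger with median scaling (0.56, limma adjusted p = 0.0555) and with the smooth muscle level (0.55, limma adjusted p = 0.142). The dimmer Ihh probe (103390047) pointed the same way, with a log2 fold change of 0.18 (SE 0.12, limma adjusted p = 0.360), and followed the brighter one over the 12 mice (r = 0.73).

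The promoter of Ihh is shown as that of the one ligand with a window, and it holds 2 copies of the core of the Gli binding sequence, as does the window of Gli2. The Gli factors bind GACCACCCA, whose core is CCACCC. Both strands were searched in the 250 bases before 1 RefSeq start of each gene (GRCm38.p6), with the core contained in the longer motif. For Ptch1, Gli2 and Hhip this start was not the outermost start of the gene. In the minus-strand window chr1:74951673-74951922, printed 5′ to 3′, capitals mark the core or its reverse complement:
Ihh: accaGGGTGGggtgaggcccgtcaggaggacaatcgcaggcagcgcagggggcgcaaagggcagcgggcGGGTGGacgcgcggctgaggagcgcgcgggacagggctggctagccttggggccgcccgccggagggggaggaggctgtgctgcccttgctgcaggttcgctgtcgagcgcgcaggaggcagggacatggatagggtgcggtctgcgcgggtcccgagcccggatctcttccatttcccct
The longer motif was found in 0 of the 7 members with a window and in 0.225% of all 32851 windows. The core was found in 5 of the 7 members, Ihh, Smo, Gli2, Gli3 and Hhip, and in 28.1% of all windows. A match describes the letters only and says nothing of binding.

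Ptch1, the receptor for the ligands and at the same time one of the best known Hedgehog targets, had a lower mean in Car9-/- mice that did not pass. Its brighter probe (104670725) had a lowest, median and highest signal of 7.72, 7.84 and 8.16 in Car9-/- mice and of 7.86, 8.13 and 8.38 in wild-type mice. The ranges overlapped, with 3 of 6 Car9-/- mice lower than all 6 wild-type mice. Its log2 fold change was -0.24 (SE 0.11, 95% CI -0.47 to -0.008, unadjusted p = 0.0436, limma adjusted p = 0.169), and with median scaling it was -0.07 (limma adjusted p = 0.715). The other Ptch1 probe (430278) was detected in 0 Car9-/- and 3 wild-type mice and had a log2 fold change of -0.19 (SE 0.10, limma adjusted p = 0.221). The Ptch1 probes did not order the mice alike (r = 0.03 over 12 mice), so the agreement in sign rests on the group means.

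Smo, the signal transducer under Ptch1, was measured by 3 probes, each detected on all 12 arrays and none past the threshold. Probe 5340538 had 7.20, 7.36 and 7.48 (lowest, median, highest) in Car9-/- mice and 7.29, 7.42 and 7.78 in wild-type mice, a log2 fold change of -0.14 (SE 0.08, 95% CI -0.32 to 0.04, limma adjusted p = 0.294). Probe 105080672 had the same log2 fold change of -0.14 (SE 0.07, limma adjusted p = 0.195), and probe 6350132 had -0.02 (SE 0.08, limma adjusted p = 0.903). The genotypes overlapped for each probe, though for probe 105080672 4 of 6 Car9-/- mice were lower than all wild-type mice. Over the 12 mice the first pair of probes had r = 0.70, and each had r = 0.10 and 0.28 with the third. The difference of probe 5340538 shrank to -0.02 with median scaling (limma adjusted p = 0.895), -0.05 with the exocrine pancreas level (limma adjusted p = 0.867) and -0.08 without wild-type mouse 4 (limma adjusted p = 0.520).

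The Gli factors carry the signal to the genome. Gli1, which is switched on by the pathway and is its usual readout, was detected on 0 of 12 arrays. Its single probe (4560176) stayed at background, 5.71 to 6.33 in Car9-/- mice and 5.65 to 6.02 in wild-type mice, and no fold change can be given. A difference in Gli1 was thus not measurable on these arrays.

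Gli2, the main activator of the family, had a difference within its spread. Probe 105910687 had 7.58, 7.66 and 7.73 (lowest, median, highest) in Car9-/- mice and 7.57, 7.69 and 8.10 in wild-type mice, with every Car9-/- mouse inside the wild-type range. Its log2 fold change was -0.10 (SE 0.09, 95% CI -0.29 to 0.10, limma adjusted p = 0.508), and the sign turned with median scaling (0.05). The other Gli2 probe (3060632) was detected in only 2 Car9-/- mice and was not tested.

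Gli3, which acts mostly as a repressor of Hedgehog targets when no ligand is bound, had a lower mean in Car9-/- mice that fell short of the threshold. Probe 104540162 had a lowest, median and highest signal of 7.95, 8.20 and 8.30 in Car9-/- mice and of 8.13, 8.44 and 8.71 in wild-type mice. The groups overlapped through 1 wild-type female, mouse 6 at 8.13, and the second-lowest wild-type mouse, a male at 8.28. The log2 fold change was -0.28 (SE 0.10, 95% CI -0.49 to -0.07, limma adjusted p = 0.0851). Without wild-type mouse 6 it was -0.34 and passed (limma adjusted p = 0.0382), and without both mice 4 and 6 it was -0.39 (limma adjusted p = 0.0394). The dimmer Gli3 probe (5690148) was detected in 1 wild-type mouse and was not tested.

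Smooth muscle values are given beside Gli3. All 9 smooth muscle markers, each of which was tested, had negative log2 fold changes and 0 of 9 passed (limma; 5 at an unadjusted p under 0.05), among them the myosin heavy chain Myh11 (-0.73, SE 0.22, limma adjusted p = 0.0513). The smooth muscle level was -0.72 to 0.07 in Car9-/- mice and -0.16 to 0.71 in wild-type mice. With it as a covariate, Gli3 had a log2 fold change of -0.11 (SE 0.10, limma adjusted p = 0.555). With median scaling Gli3 was at -0.09 (limma adjusted p = 0.547). Fibroblast markers, by comparison, had levels of -0.12 to 0.11 in Car9-/- mice and -0.13 to 0.13 in wild-type mice, with 0 of 8 passing (limma; 0 at an unadjusted p under 0.05).

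The Gli3 promoter window, chr13:15463473-15463722 on the plus strand, is shown as the window of the Gli factor nearest to the threshold, with 1 core copy, here as the reverse complement, in capitals:
Gli3: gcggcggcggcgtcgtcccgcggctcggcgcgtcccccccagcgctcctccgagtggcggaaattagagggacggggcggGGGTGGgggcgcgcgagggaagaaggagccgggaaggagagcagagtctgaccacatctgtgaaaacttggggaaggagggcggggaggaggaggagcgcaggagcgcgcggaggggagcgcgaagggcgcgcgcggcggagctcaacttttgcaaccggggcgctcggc
The window is rich in G and C and holds 34 CG pairs, against 24 in that of Ihh.

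Hhip, a membrane protein that binds Hedgehog ligands and keeps them from Ptch1, is itself induced by the pathway. Its brighter probe (106110725) had a lowest, median and highest signal of 9.13, 9.57 and 9.77 in Car9-/- mice and of 8.35, 8.98 and 9.45 in wild-type mice. The ranges overlapped, and the 3 Car9-/- mice higher than all wild-type mice were the 3 females. Between genotypes the log2 fold change was 0.55 (SE 0.17, 95% CI 0.19 to 0.91), or 1.47-fold, with a limma adjusted p of 0.0519, just over the threshold. The dimmer probe (6940438), detected in 6 Car9-/- and 2 wild-type mice, had 0.28 (SE 0.10, limma adjusted p = 0.0878) and tracked the brighter one (r = 0.69).

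The call for Hhip depended on the processing, on single mice and on the tissue covariate, while its sign held in all 29 alternatives. With median scaling its log2 fold change was 0.78 and passed (limma adjusted p = 0.0087). Among probes detected on all 12 arrays its limma adjusted p was 0.0414. Without Car9-/- mouse 1 the log2 fold change was 0.63 (limma adjusted p = 0.0457), and without wild-type mouse 1 it was 0.65 (limma adjusted p = 0.0313). It also passed with the smooth muscle level (0.82, limma adjusted p = 0.0354) or the pit cell level (0.82, limma adjusted p = 0.0438) as a covariate. It was smaller without wild-type mice 4 and 6 (0.39, limma adjusted p = 0.158) and with the exocrine pancreas level (0.35, limma adjusted p = 0.475). The 198 bases upstream of the outermost RefSeq start of Hhip, chr8:80058061-80058258 on the minus strand, are shown for the member next in line after Shh and hold 1 core copy in capitals:
Hhip: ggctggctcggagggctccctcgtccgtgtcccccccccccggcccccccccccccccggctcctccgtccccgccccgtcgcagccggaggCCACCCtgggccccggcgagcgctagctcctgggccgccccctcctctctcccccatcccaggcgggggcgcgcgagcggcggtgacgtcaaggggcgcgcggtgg

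Sufu, the cytoplasmic inhibitor that holds Gli proteins back, had nearly equal means. Probe 103840528 had 7.15, 7.26 and 7.79 (lowest, median, highest) in Car9-/- mice and 7.11, 7.32 and 7.52 in wild-type mice, and the genotypes overlapped apart from Car9-/- mouse 5 at 7.79. The log2 fold change was 0.01 (SE 0.11, 95% CI -0.23 to 0.26, limma adjusted p = 0.954). The other Sufu probes (6650181 and 104150711) were detected on 0 arrays.

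**Figure D2:**
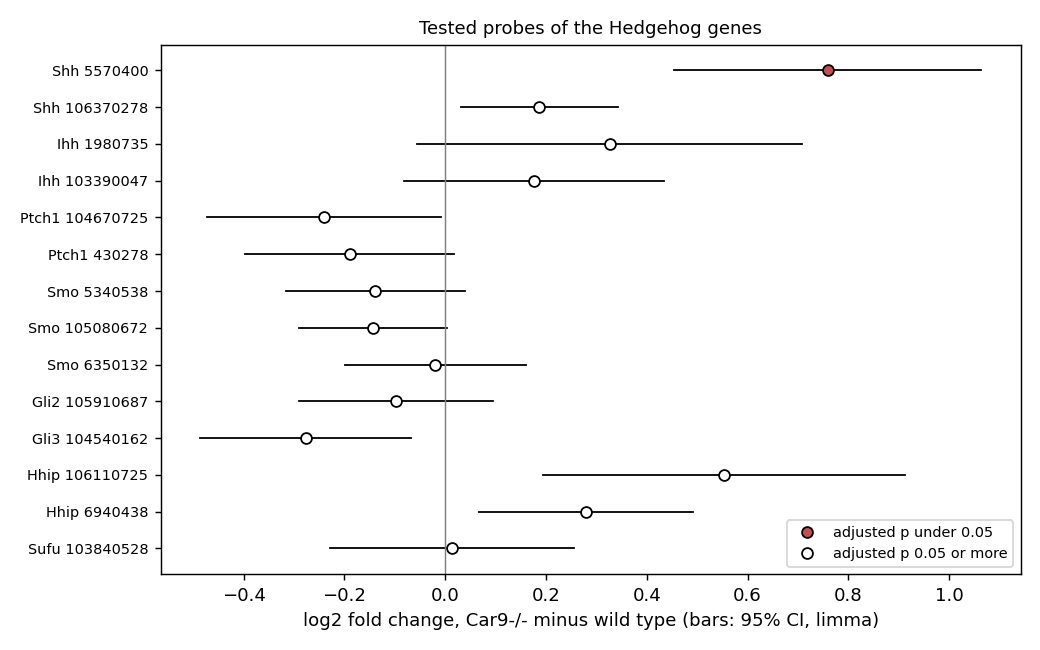
Log2 fold change (x axis, Car9-/- minus wild type) of the 14 tested probes of the Hedgehog genes, ordered from ligands to inhibitors, with 95% confidence intervals from limma; filled points passed an adjusted p of 0.05. The filled point is Shh 5570400 at 0.76, the open points of Hhip lie at 0.55 and 0.28, and those of Ptch1 and Gli3 lie between -0.19 and -0.28.

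Besides genotype, the labels give the sex and age of each mouse, and the sexes were compared. Of the 14 member probes, 0 differed between males and females with genotype as a covariate (limma; 0 at an unadjusted p under 0.05), where 0.0241% of all tested probes were called. The lowest unadjusted p was that of Shh, 0.0820, with a male minus female difference of -0.24 (SE 0.13, limma adjusted p = 1.00). The members thus showed no sex difference past the threshold at this number of mice.

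The size of the genotype difference was then compared between the sexes. Of the member probes, 0 passed the interaction test (limma), where 0.0145% of all tested probes were called. At an unadjusted p under 0.05, the count was 4 of 14 member probes and 1920 of 20751 tested probes. Shh had male means of 11.30 in Car9-/- mice and 10.22 in wild-type mice, and female means of 11.22 in Car9-/- mice and 10.79 in wild-type mice (n = 3 each). The genotype difference was 1.08 in males and 0.44 in females, and the contrast between them was 0.65 (SE 0.18, limma adjusted p = 0.277). In wild-type mice all 3 males, at 10.04 to 10.36, were below all 3 females, at 10.63 to 11.05, whereas the sexes overlapped in Car9-/- mice.

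Hhip went the other way between the sexes, again without passing. Its male means were 9.29 in Car9-/- mice and 9.16 in wild-type mice, and its female means were 9.75 in Car9-/- mice and 8.77 in wild-type mice (n = 3 each). The genotype difference was 0.13 in males and 0.97 in females, with a contrast of -0.84 (SE 0.25, limma adjusted p = 0.318). The dimmer Hhip probe had the same sign of contrast, -0.18 (SE 0.18, limma adjusted p = 0.811).

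**Figure D3:**
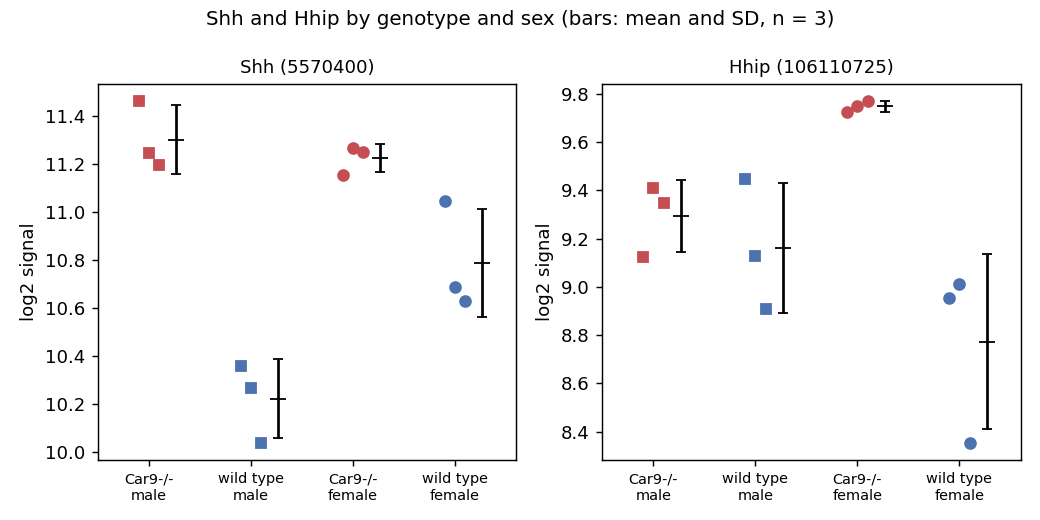
Log2 signal (y axis) of the brightest Shh and Hhip probes in Car9-/- and wild-type males (squares) and females (circles), 3 mice per group, with the mean and SD beside the points. The Shh means are 11.30 and 10.22 in Car9-/- and wild-type males and 11.22 and 10.79 in Car9-/- and wild-type females; the Hhip means are 9.29 and 9.16 in males and 9.75 and 8.77 in females.

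Whether the ligands and their targets varied together from mouse to mouse was examined with 18 correlations, of Shh and Ihh each with Ptch1, Gli1 and Hhip, over all mice and within each genotype. The 6 correlations with Gli1 rest on background signal and are not informative. Over the family of 18, none passed after Benjamini-Hochberg adjustment, the lowest adjusted p for Pearson's r being 0.54. For Shh no pooled value is given because its genotypes did not overlap. Within genotypes, Shh and Hhip had r = -0.64 (exact permutation p = 0.15) and rho = -0.09 (exact permutation p = 0.919) in 6 Car9-/- mice. In 6 wild-type mice they had r = -0.25 (exact permutation p = 0.671) and rho = -0.09 (exact permutation p = 0.919). These became r = 0.77 in Car9-/- mice and -0.63 in wild-type mice without the 2 mice farthest from the median of Shh. Ihh and Hhip had r = 0.46 (permutation p = 0.135) and rho = 0.45 (permutation p = 0.148) over 12 mice, and r = 0.67 without the 2 mice farthest from the median of Ihh. Ihh and Ptch1 had r = -0.38 (permutation p = 0.222) over 12 mice. Within genotypes their r was -0.47 in Car9-/- mice (exact permutation p = 0.268) and 0.01 in wild-type mice (exact permutation p = 0.986). Their rho was -0.83 in Car9-/- mice (exact permutation p = 0.0583) and 0.49 in wild-type mice (exact permutation p = 0.356). Shh and Ptch1 had r = 0.09 in Car9-/- mice (exact permutation p = 0.875) and 0.36 in wild-type mice (exact permutation p = 0.504).

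The rest of the pathway was taken from a list of 26 further genes for ligand release, co-receptors, cilium transport and Gli processing. Of these, 23 had a probe and 14 were tested, and 0 of 14 passed (limma; 3 at an unadjusted p under 0.05), with a median log2 fold change of -0.05. The brightest were the Gli-degrading ubiquitin ligase adaptor Spop (-0.20, SE 0.11, limma adjusted p = 0.275), the Gli kinase Gsk3b (0.08, SE 0.07, limma adjusted p = 0.475) and the catalytic subunit of protein kinase A Prkaca (-0.17, SE 0.06, limma adjusted p = 0.0892). Evc, a cilium protein that binds Smo, was singled out after its values were seen as the one nearest to the threshold, with -0.34 (SE 0.11, limma adjusted p = 0.0584). Desert hedgehog (Dhh), the remaining mammalian ligand, was detected in 1 Car9-/- mouse only and was not tested. With median scaling Spop and Prkaca had the opposite sign (0.04 and 0.06), and Gsk3b passed (0.32, limma adjusted p = 0.0164).

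Candidate Hedgehog targets and transcription factors of the stomach mesenchyme, formed a list of 16 genes. Of the 13 tested, 4 were higher and 2 lower in Car9-/- mice (limma), beside 5.34% higher and 5.25% lower of all tested probes, with a median log2 fold change of -0.01. The split depended on the scaling: with median scaling, 6 of the 27 tested genes of both lists were higher and 0 lower, since Barx1 and Foxf1 no longer passed while Gsk3b and Bcl2 did. Of all 20751 tested probes, median scaling called 3585 higher and 426 lower, so the shift was not particular to these genes. With quantile normalization, the higher ones were the cell cycle genes Ccnd1 and Cdk6, the transcription factor of dividing cells Foxm1 and the secreted Wnt ligand Wnt5a. The lower ones were Barx1 and Foxf1, transcription factors of the gut mesenchyme. These genes also answer to other pathways, and Foxm1, Ccnd1 and Cdk6 rise in dividing cells generally.

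Ccnd1, cyclin D1, had 11.59, 11.95 and 12.21 (lowest, median, highest) in Car9-/- mice and 10.96, 11.39 and 11.59 in wild-type mice, with no overlap. Its log2 fold change was 0.57 (SE 0.13, limma adjusted p = 0.0171), and of its other probes those at 0.72 (limma adjusted p = 0.00755) and 0.47 (limma adjusted p = 0.00929) passed and the one at 0.36 (limma adjusted p = 0.344) did not. Cdk6, the kinase partner of D cyclins, had 9.50, 9.60 and 9.64 in Car9-/- mice and 9.14, 9.31 and 9.45 in wild-type mice, again without overlap. Its log2 fold change was 0.29 (SE 0.06, limma adjusted p = 0.0128), but a second Cdk6 probe was at 0.02 (limma adjusted p = 0.865). Both genes passed with every single mouse left out.

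Foxm1 had 6.86, 7.25 and 7.55 (lowest, median, highest) in Car9-/- mice and 6.59, 6.68 and 6.87 in wild-type mice, with 5 of 6 Car9-/- mice higher than all 6 wild-type mice. This was a log2 fold change of 0.52 (SE 0.10, limma adjusted p = 0.00937), which passed with every single mouse left out. Wnt5a had 8.82, 9.41 and 9.66 in Car9-/- mice and 8.49, 8.72 and 9.23 in wild-type mice, a log2 fold change of 0.57 (SE 0.17, limma adjusted p = 0.0464). The Wnt5a call was close to the threshold: its dimmer probes, at 0.40 (limma adjusted p = 0.0619) and 0.21 (limma adjusted p = 0.152), did not pass. It kept its call in 4 of the 12 fits with 1 mouse left out, those without Car9-/- mice 2 or 5 or wild-type mice 1 or 2, with adjusted p-values of up to 0.104 in the others.

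Barx1 had 8.62, 9.03 and 9.41 (lowest, median, highest) in Car9-/- mice and 9.36, 9.60 and 9.78 in wild-type mice, with 5 of 6 Car9-/- mice lower than all 6 wild-type mice. This gave a log2 fold change of -0.56 (SE 0.11, limma adjusted p = 0.0106), which passed with every single mouse left out. It did not pass with median scaling (-0.33, limma adjusted p = 0.0546) or with the smooth muscle level as a covariate. Foxf1, a direct Hedgehog target in gut mesenchyme, had 6.995, 7.39 and 7.44 in Car9-/- mice and 7.37, 7.66 and 7.70 in wild-type mice, with 2 of 6 Car9-/- mice lower than all wild-type mice. Its log2 fold change of -0.29 (SE 0.09, limma adjusted p = 0.0472) kept its call in 3 of the 12 fits with 1 mouse left out, those without Car9-/- mice 5 or 6 or wild-type mouse 4, with adjusted p-values of up to 0.0944 in the others, and lost it with median scaling (-0.17, limma adjusted p = 0.231). Igf1, a growth factor gene of the same list, is named after its values were seen because its probes differed: the brighter was at -0.40 (limma adjusted p = 0.222) and the dimmer at -0.89 (limma adjusted p = 0.0482).

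The brightest candidate targets that did not pass were Ccnd2, cyclin D2 (-0.20, SE 0.10, limma adjusted p = 0.216), the secreted Wnt inhibitor Sfrp1 (-0.01, SE 0.21, limma adjusted p = 0.987) and Bmp4 (-0.01, SE 0.11, limma adjusted p = 0.969). Bmp4, a growth factor that Hedgehog signals induce in gut mesenchyme, had 9.77, 10.16 and 10.40 (lowest, median, highest) in Car9-/- mice and 9.97, 10.09 and 10.29 in wild-type mice, so the Car9-/- range reached past the wild-type range at both ends. Foxl1, Mycn and Snai1 were detected on 0 arrays. With the parietal cell, pit cell or exocrine pancreas level as a covariate, 0 of the genes of both lists passed (limma). Among all tested probes, 54, 242 and 31 passed with these covariates. With the smooth muscle level, Foxm1, Ccnd1 and Igf1 passed, while Barx1, Foxf1, Wnt5a and Cdk6 did not (limma), beside 1024 of all tested probes. The direction of all 6 called genes held in every alternative in which they were tested.

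**Figure D4:**
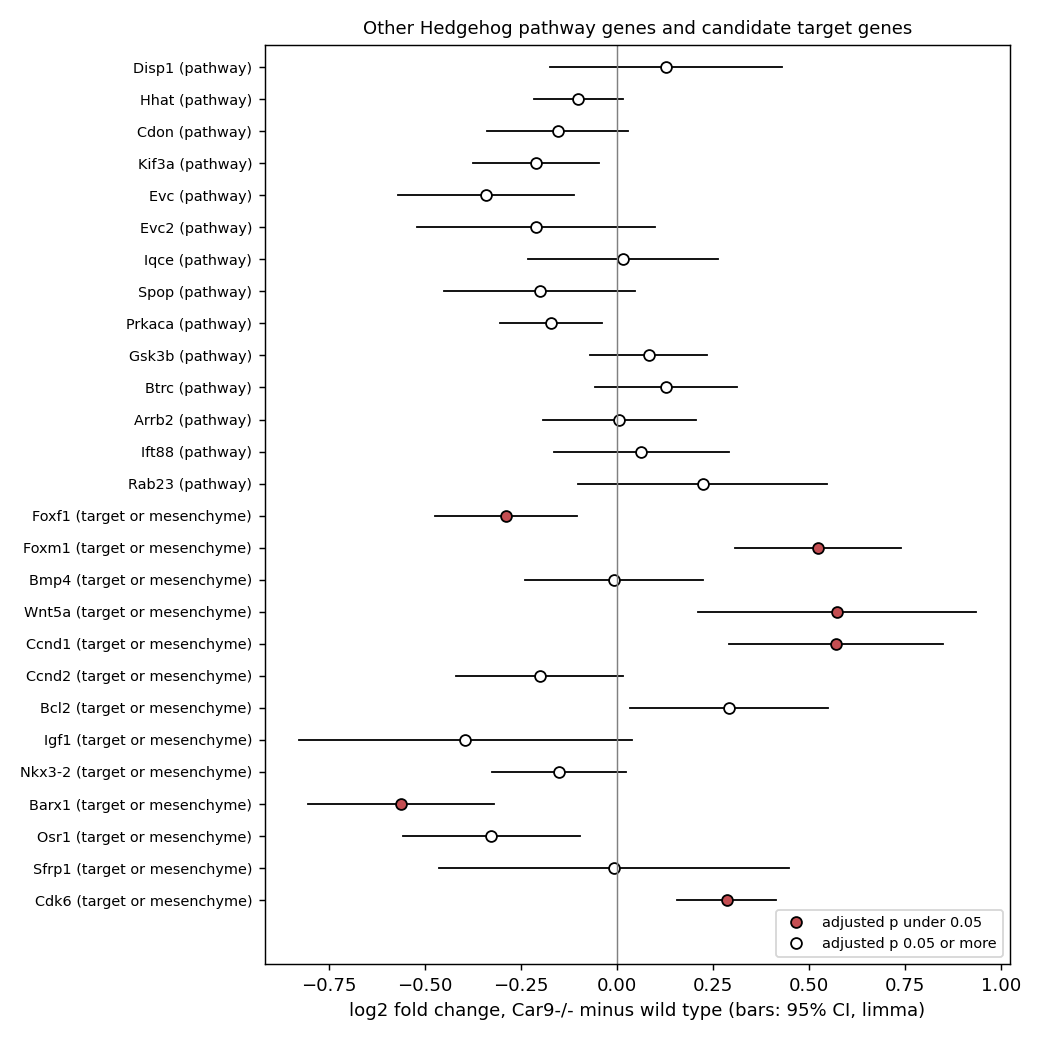
Log2 fold change (x axis, Car9-/- minus wild type) of the 14 tested further pathway genes (upper block) and the 13 tested candidate target or mesenchyme genes (lower block), brightest probe of each, with 95% confidence intervals from limma; filled points passed an adjusted p of 0.05. The filled points to the right of 0 are Foxm1, Wnt5a, Ccnd1 and Cdk6, from 0.29 to 0.57, and those to the left are Barx1 at -0.56 and Foxf1 at -0.29.

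The tested probes whose signal followed each member most closely over the 12 mice are given as a description, since all share the same arrays and several differed by genotype. Shh was followed most closely by Vill (r = 0.98), Cdc42ep5 (r = 0.97) and Sh3gl2 (r = 0.97), all of which were higher in Car9-/- mice, by 0.53, 0.74 and 0.53 (limma adjusted p = 0.00948, 0.00665 and 0.00563). The r values over 12 mice pool genotypes that did not overlap in Shh. Genes picked by such values follow its genotype difference, which is thus no separate result for them. Within the 6 Car9-/- mice r was 0.73, 0.65 and 0.74, and within the 6 wild-type mice 0.95, 0.95 and 0.97. Ihh was followed by Bad (r = 0.97), Ptprn2 (r = 0.93) and Mmp24 (r = 0.93), and Hhip by Insr (r = 0.90), Numb (r = 0.90) and Sugp2 (r = 0.89). Gli3 was followed by Rbpms2 (r = 0.95), Clmp (r = 0.93) and Crim1 (r = 0.93), and Gli2 by Tshz3 (r = 0.94), Sobp (r = 0.91) and Soga1 (r = 0.91). Ptch1 was followed by Pde7b (r = 0.94), Arhgef3 (r = 0.88) and Zfp763 (r = 0.87), Smo by Socs1 (r = 0.89), 4933404K08Rik (r = 0.87) and the endothelial receptor Tie1 (r = 0.87), and Sufu by Git2 (r = 0.97), Senp1 (r = 0.95) and Pip5k1a (r = 0.94). Apart from the neighbours of Shh, none of these genes passed the genotype test.

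Of the remaining marker lists, 1 of 5 chief cell markers was lower in Car9-/- mice, the transcription factor Bhlha15 (-1.46, limma adjusted p = 0.0392), as were 1 of 5 endothelial markers, Pecam1, and 2 of 4 tested enteric neuron and glia markers, Uchl1 and Sox10. None of the 2 neck cell, 13 squamous or 3 tested adipocyte markers passed (limma; 1, 3 and 2 at an unadjusted p under 0.05). Of 3 tested enterocyte markers 1 was higher, the brush border protein Vil1 (1.03, limma adjusted p = 0.0395). The other 2 had negative log2 fold changes that did not pass, Apoa4 (-0.66, limma adjusted p = 0.124) and Cdx2 (-0.10, limma adjusted p = 0.258), and 4 of the 7 listed were not tested. The part of chief cells, neck cells, endothelium, enteric neurons and glia, and enterocytes in the Hedgehog values was not tested.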

How the data were processed

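Gene expression was measured in the stomach of 6 Car9-/- and 6 wild-type mice, 1 array each, with groups taken from the genotype in the labels. The authors deposited probe signal intensity on a linear scale, extracted in BeadStudio without background subtraction, the detection p-value of each probe, and quantile-normalized log2 values made in Chipster. Here, the intensities were log2-transformed and quantile-normalized (within 0.0224 of the authors' log2 values). A probe was tested where its detection p was below 0.01 on 3 or more arrays. The genotypes were set against each other in limma 3.58.1 (lmFit, then eBayes; R 4.3.3), two-sided, with Benjamini-Hochberg adjustment over all 20751 tested probes and a threshold of 0.05; sex was tested with genotype as a covariate. The scripts were checked on simulated arrays. The number of arrays limits the precision.

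The platform table gives 1 symbol for 32794 probes, several for 55 and none for 13794. Where several probes of a gene were tested, the brightest stood for it. The text names Car9, every member probe, listed genes that passed (at most 4 per direction), the 3 brightest that did not, leading markers and the 3 nearest neighbours of each member; others are marked where they follow from their values. The members and lists were chosen with earlier results of these data known. Replicate numbers did not pair the mice. Promoters came from RefSeq (GRCm38.p6), with a window for 7 of 9 members. Figures were drawn with matplotlib 3.10.9 (python 3.11.15).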

Additional observations from a re-analysis of the deposited data

Results flagged for a closer look

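In the 28 groups of 6 mice formed by the 14 tested member probes, 4 held a mouse whose gap to its nearest neighbour was large for the range of the group (Dixon's test); chance flags about 1 in 20 groups. The brighter Shh probe was at 11.46 in Car9-/- mouse 1, above the other Car9-/- mice. The brighter Ihh probe was at 10.19 in Car9-/- mouse 5 and at 10.06 in wild-type mouse 3, both females. The Sufu probe was at 7.79 in Car9-/- mouse 5.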

How the results depend on the processing

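Shh kept its direction in all 29 alternatives and its call in 26; the 3 exceptions are the parietal cell, pit cell and exocrine pancreas covariates given with its values. With the replicate number as a block, Shh remained at 0.76 (limma adjusted p = 0.0471), Hhip had an adjusted p of 0.155, and the counts were 461 of all probes and 2 of the further pathway and target genes, against 2197 and 6. The numbers do not pair the mice: 1 of 6 same-numbered pairs had deviations with a correlation above 0.1 (-0.37 to 0.50), and 0 of 6 correlated best with their own number.

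Median scaling raised the median log2 change of tested probes by 0.11 and called 4011 probes, 3585 higher and 426 lower, against 1108 and 1089. Array weights called 3804. With a tissue level as covariate, the counts of all probes, and of the further genes, were 31 and 0 (pancreas), 1024 and 3 (smooth muscle), 838 and 2 (adipocyte), 54 and 0 (parietal), 242 and 0 (pit) and 2086 and 6 (squamous). Without wild-type mice 4 and 6 they were 961 and 3. Leaving out 1 mouse gave 1224 to 3366 probes, 1 to 2 members and 4 to 8 further genes, the highest count of probes without Car9-/- mouse 5 and the lowest without Car9-/- mouse 4. The settings for the further genes and the parietal and pit covariates were chosen after seeing the data.

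Of the members, 2 passed with median scaling, probes detected on all 12 arrays, array weights or the smooth muscle covariate (Shh and Hhip), with sex and age (Shh and Ihh), and with the squamous or adipocyte covariate or without wild-type mice 4 and 6 (Shh and Gli3). None passed with the pancreas or parietal covariate (0), and the authors' SD filter left 0 member probes. Gli2 turned to 0.0524 with median scaling and 0.0029 with the smooth muscle covariate. Sufu turned to -0.028 with array weights, -0.0277 with the squamous, -0.0484 with the adipocyte and -0.0141 with the parietal covariate and -0.0011 without wild-type mice 4 and 6, and ranged from -0.0801 to 0.0563 with 1 mouse left out. The cause was not tested. Sex, interaction and ligand-target counts stayed 0 where rerun. The slide as a block was not run, since the headers used here name no slide. Gli1 was at background, which limits what can be said of pathway output.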
